A study of Mus musculus with 8 samples.

Results

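The TMEM genes are protein-coding genes whose symbol begins with Tmem followed by a number, a provisional name given to proteins that were predicted to cross a membrane before their role was known. Of the 8125 genes in the table analysed, 79 carried such a symbol, and the other 8046 listed genes were the comparison. The rule for membership used the symbol and no measured value, although it was set with earlier results of these data known. They came from ribosome profiling of undifferentiated mouse embryonic stem cells of the TC1 line grown in LIF and serum. Knockout cells were Dis3l2 -/- and had been made with CRISPR/Cas9, and control cells were Dis3l2 +/-, so that the control too lacked 1 copy of the gene. Each genotype had 2 RPF libraries, where RPF stands for the ribosome-protected fragment of mRNA left by nuclease digestion, and 2 input libraries of the mRNA itself, all made after cycloheximide had arrested translation. The study's methods describe 2 biological replicates, and whether the knockout cells were 1 clone is not stated in the sources read here. No value of Dis3l2 was available for a check of genotype, which was taken from the labels.

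Proteins of this kind are made on ribosomes at the endoplasmic reticulum (ER). The signal recognition particle (SRP), built on the 7SL RNA, binds a hydrophobic stretch as it leaves the ribosome and brings the ribosome to the ER membrane, where the Sec61 channel, the ER membrane protein complex (EMC) and the translocon for multi-pass proteins insert it. Short and tail-anchored proteins can use other routes, and many mitochondrial membrane proteins are imported after synthesis in the cytosol. DIS3L2 is an exoribonuclease that degrades uridylated and structured non-coding RNAs, and the libraries were made to ask which mRNAs change in translation without it. From their known roles, 51 of the 79 members were placed in 8 groups: ER insertion, glycosylation and quality control (7), ER and store calcium (3), Golgi, endosome and lysosome (13), lipid metabolism (3), mitochondria (11), nuclear envelope (4), plasma membrane and ion transport (6) and primary cilium (4). The other 28 were given no role. A symbol does not bring a shared ancestry, and the members lay on 17 chromosomes.

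What most of the members have in common is a hydrophobic stretch, which can be seen in its coding sequence. Codons with T in the middle encode phenylalanine, leucine, isoleucine, methionine or valine, all strongly hydrophobic residues. In the sequences below, the coding strand of the first hydrophobic segment (19 codons) is written 5' to 3' with those codons in capitals, from GENCODE M21 transcripts of GRCm38. The genes shown first are the 3 tested members with the highest fitted log2 RPF over input in control.
Tmem184b: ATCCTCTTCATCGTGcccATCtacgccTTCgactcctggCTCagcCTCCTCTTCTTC
Tmem39b: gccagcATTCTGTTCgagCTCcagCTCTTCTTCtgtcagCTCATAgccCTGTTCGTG
Tmem214: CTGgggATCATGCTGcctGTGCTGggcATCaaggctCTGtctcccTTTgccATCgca
The 3 tested members with the lowest fitted value follow.
Tmem183a: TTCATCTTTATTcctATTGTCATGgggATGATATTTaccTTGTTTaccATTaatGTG
Tmem2: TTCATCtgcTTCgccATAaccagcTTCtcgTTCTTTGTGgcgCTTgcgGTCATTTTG
Tmem57: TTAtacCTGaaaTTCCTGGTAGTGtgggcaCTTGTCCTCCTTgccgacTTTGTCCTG
The last 3 are those with the smallest p-values for a change of translation between genotypes.
Tmem43: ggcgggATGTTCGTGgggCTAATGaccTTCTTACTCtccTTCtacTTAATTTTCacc
Tmem33: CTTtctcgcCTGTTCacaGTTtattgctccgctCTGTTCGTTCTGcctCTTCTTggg
Tmem147: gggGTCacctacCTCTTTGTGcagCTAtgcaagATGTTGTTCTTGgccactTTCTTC
The segments lie at chr15:79377099-79377155, chr4:129693135-129693191, chr5:30872692-30872748, chr1:134348180-134350124, chr19:21792896-21792952, chr4:134837927-134837983, chr6:91477332-91477388, chr5:67263769-67264270 and chr7:30728693-30729234, in that order. Those of Tmem183a, Tmem33 and Tmem147 are joined from 2 exons, and their intervals hold an intron. Tmem184b had 12 such codons of 19, Tmem183a 14 and Tmem33 10. Over the members with a segment the median was 11 (range 6 to 15), and over the other listed genes with one it was 10. Segments were picked for high hydropathy, so such codons are frequent in them by construction.

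A hydrophobic segment was called where the mean Kyte-Doolittle hydropathy over 19 residues reached 1.6, a rule on sequence alone that also takes in cleaved signal peptides. By that rule 73 of the 79 members (92.4%) had at least 1 segment, against 27.6% of the other listed genes. One segment was found in 12 members, 2 to 4 in 42 and 5 or more in 19. The 6 members with none were Tmem135, Tmem11, Tmem263, Tmem209, Tmem70 and Tmem126b, of which Tmem135, Tmem11, Tmem70 and Tmem126b act in mitochondria. In 42 members the first segment began within 60 residues of the start, and in 31 it began later. The encoded proteins had a median of 298 residues (72 to 1877), against 484 in the others.

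Precision was set by the RPF libraries. They held 268255 and 140163 reads in knockout and 558962 and 1126782 in control, against 9043982 and 33609787 in knockout input and 8585206 and 8382211 in control input. The median member had 8 and 5 RPF reads in the knockout libraries and 15 and 27 in the control libraries. In knockout RPF replicate 2, 66 of the 79 members had fewer than 10 reads and 12 had exactly 1, and in knockout RPF replicate 1 these were 44 and 7. A single read stood for 8.22 and 15.6 normalised units in the knockout RPF libraries and for 3.94 and 1.94 in the control RPF libraries. RPF reads are therefore given for many of the single members. Reads include PCR copies, and a read number does not show the variation between cultures and libraries.

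The members were on the whole less abundant than other genes. Their median input value was 53.7 and 56.9 normalised units in knockout and 57.1 and 56.5 in control, against 112 and 112 in knockout and 112 and 111 in control for the other listed genes. Normalised units are reads divided by 1 factor per library and are not corrected for length. Per kilobase of coding sequence, which allows genes to be compared, the member median was 60.8 units of input (others 76.7) and 65.9 of RPF (others 77.2). Of the 79 members, 30 lay above the median listed gene in input per kilobase and 32 in RPF per kilobase.

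**Figure D1:**
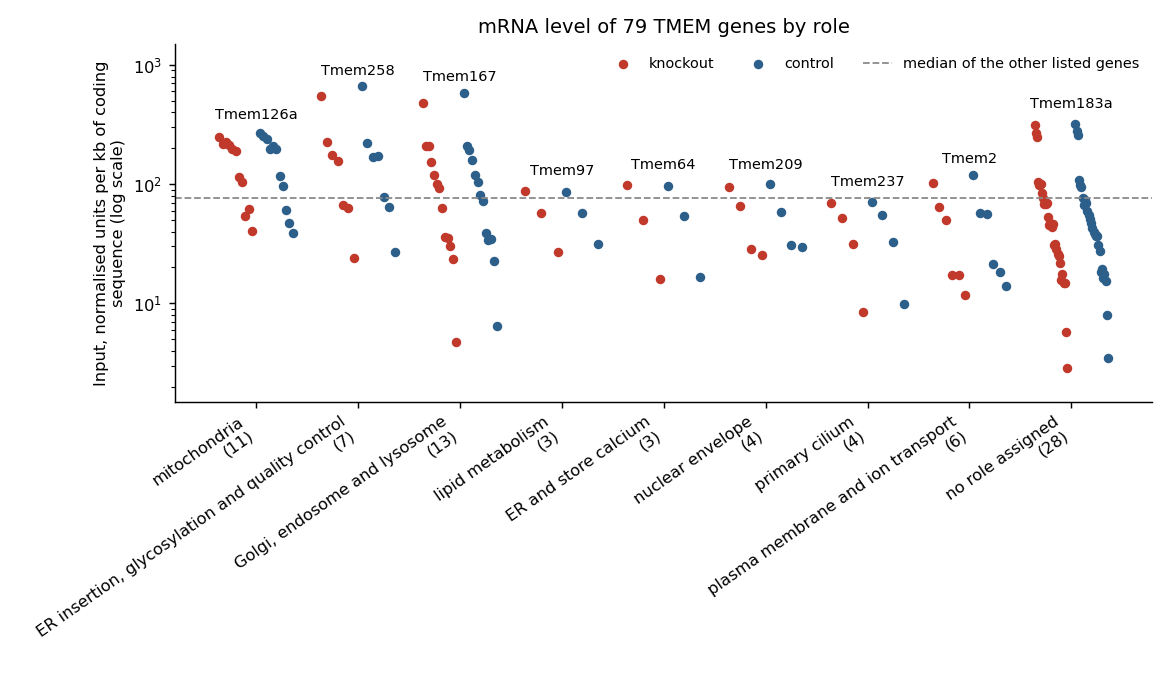
Input level of each TMEM gene per kilobase of coding sequence (log axis), by role group, as the mean of the 2 knockout libraries and of the 2 control libraries, knockout left. Numbers in parentheses count the members, the most abundant member of each group is named, and the dashed line is the median of the other listed genes (76.7). Mitochondrial members and those of ER insertion have the highest group medians (194 and 165).

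The levels per kilobase of input varied by role. Mitochondrial members had the highest median (194 units per kilobase), followed by ER insertion, glycosylation and quality control (165), Golgi, endosome and lysosome (87.0), lipid metabolism (56.8), ER and store calcium (51.9), nuclear envelope (46.0), primary cilium (42.8) and plasma membrane (36.3), with 45.3 for the members without a role. The groups overlapped widely, and these medians are a description with no test. The single most abundant member was Tmem258 (ENSMUSG00000036372, chr19:10204014-10207824, plus strand), a subunit of the oligosaccharyltransferase that glycosylates proteins in the ER, at 604 units per kilobase. It was followed by Tmem167 (535), the small Golgi protein Kish-A, Tmem183a (317), Tmem50a (274) and Tmem126a (259.6), an assembly factor of respiratory complex I. The place of Tmem167 rested on the choice of length, since its transcript is long for its coding sequence (8689 against 216 bases), and per kilobase of transcript it had 13.3 units, where Tmem258 had 236.4. At the other end stood Tmem106a (3.15), the lysosomal ion channel Tmem175 (5.62), Tmem39b (6.88), the ciliary protein meckelin, Tmem67 (9.14), and Tmem8 (12.9).

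RPF over input asks which mRNAs carry more or fewer ribosomes than their abundance would give. It was tested in each genotype by setting the 2 RPF libraries against the 2 input libraries, each centred on its median. The 49 members whose mean value reached 10 units in input and 50 in RPF were tested. Both tests came from a single fit of all libraries, so that a standard error pools the spread of both genotypes. In knockout, 12 members passed as higher (24.5%) and 6 as lower (12.2%) by limma with Benjamini-Hochberg adjustment at 0.05, where 21.8% and 20.8% of all tested genes did so. In control, 9 passed as higher and 9 as lower (18.4% each), with 19.3% and 14.6% of all tested genes. By limma with all libraries, the members' shares lay within 10 percentage points of those of all genes, which did not hold under every alternative below. In both genotypes 8 members were higher (Tmem9, Tmem39b, Tmem184b, Tmem214, Tmem263, Tmem201, Tmem131 and Tmem167b) and 4 were lower (Tmem183a, Tmem57, Tmem2 and Tmem87a). The RPF filter favours the higher calls. A gene of low input could reach 50 units in RPF only with a high RPF over input. Tmem39b, Tmem167b, Tmem9, Tmem184b and Tmem263 were such genes, with mean inputs of 10.2, 19.3, 20.6, 20.8 and 22.4 units. Members of equally low input and ordinary RPF over input were not tested. None of the 24 called in either genotype was called in opposite directions. The share of all tested genes called in both genotypes was not counted, so these counts do not set the members apart. The deeper control libraries gave 29 called members each by edgeR and by DESeq2 (58.3% and 59.2% of all tested genes), and the knockout libraries 13 and 23 (41.7% and 47.3%). Leaving out 1 library at a time left between 3 (without knockout input replicate 1, with 20.7% of all genes called) and 30 (without knockout RPF replicate 1, 61.1%) members called in knockout. In control it left between 3 (without either control input library, 15.2% and 14.1% of all genes) and 29 (without either knockout RPF library, 59.2% and 59.4%). The calls of Tmem183a in both genotypes, of Tmem9 in knockout and of Tmem57 and Tmem131 in control held under every alternative that tested them, and each of the others was lost under 1 to 10 alternatives.

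**Figure D2:**
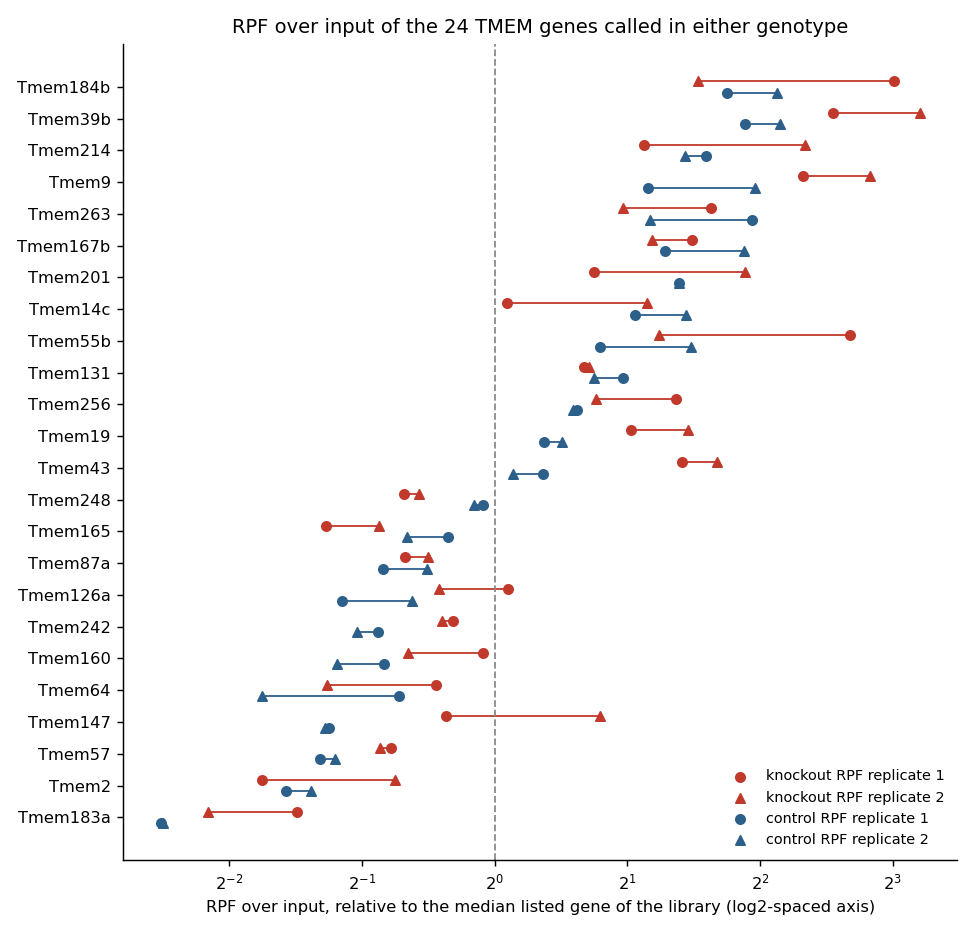
RPF over input of the 24 members that passed in either genotype, relative to the median listed gene of each RPF library (log2-spaced axis), with knockout drawn above control and each point 1 library. The members are ordered by their fitted control values, with Tmem184b and Tmem39b at the top and Tmem183a, Tmem2 and Tmem57 at the bottom.

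Members with high input tended to have low RPF over input. Across the 79 members, log2 RPF over input and log2 mean input gave r = -0.627 (rho = -0.608) in knockout and r = -0.618 (rho = -0.555) in control, against -0.404 (-0.368) and -0.318 (-0.287) across the other genes. These are descriptions across genes that share libraries, and input stands on both axes. Knockout and control values of RPF over input gave r = 0.799 across the members and 0.79 across the others, again as a description.

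Between genotypes no member passed the threshold of limma in input, in RPF or in translation efficiency (TE), RPF divided by input for the same gene. In such bulk libraries fewer cells of a type and less RNA per cell cannot be told apart. Every change is knockout over control as the library columns are named. The TE fold change in the same deposited table has a sign that runs against these columns, and each signed genotype difference given here would turn with the column names. In input, 0 of 76 tested members passed by limma with Benjamini-Hochberg adjustment, edgeR or DESeq2, which gave 61 of them an adjusted p (0.34%, 0.34% and 0.599% of all genes), with 9 at an unadjusted p under 0.05 (12.7% of all genes). In RPF, 0 of 49 passed by the 3 tools, of which DESeq2 gave an adjusted p for only 1 member (0.623% of all genes by limma, 1.44% by edgeR, 4.99% by DESeq2), with 2 at an unadjusted p under 0.05 (10.8%). In TE, 0 of 49 passed by limma and by edgeR and 1, Tmem147, by DESeq2 (0%, 1.14% and 2.93% of all genes), with 3 at an unadjusted p under 0.05 (13% of all genes). With 2 libraries against 2, an exact permutation test of a single gene cannot go below p = 0.333.

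Without a call by limma in any member, the changes of TE had a positive median. Their median change of TE was 0.22 on the log2 scale over the 49 tested (others -0.02) and 0.18 over all 79 (others -0.01), and 50 of the 79 were positive (63.3%, against 48.9% of the others). The median change in RPF was 0.26 over the 49 tested (others -0.02), 0.14 over all 79 (others -0.01) and 0.13 over the 49 without knockout RPF replicate 2. In input it was -0.05 over the 76 tested and over all 79 (others 0.00 each), and 53 of the 79 were negative. A single member's TE change had a median standard error of 0.41. Without knockout RPF replicate 1 or 2, or without any other library, the median TE change stayed between 0.18 and 0.31. Under the stricter filter, which left 3 members, it was -0.18. The RPF filter of the main fit took the mean of both genotypes. Tmem147, Tmem43, Tmem110, Tmem120a, Tmem242, Tmem19, Tmem64 and Tmem39b reached it only through knockout, which favours a positive change in them. Tmem168 and Tmem55a reached it only through control.

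**Figure D3:**
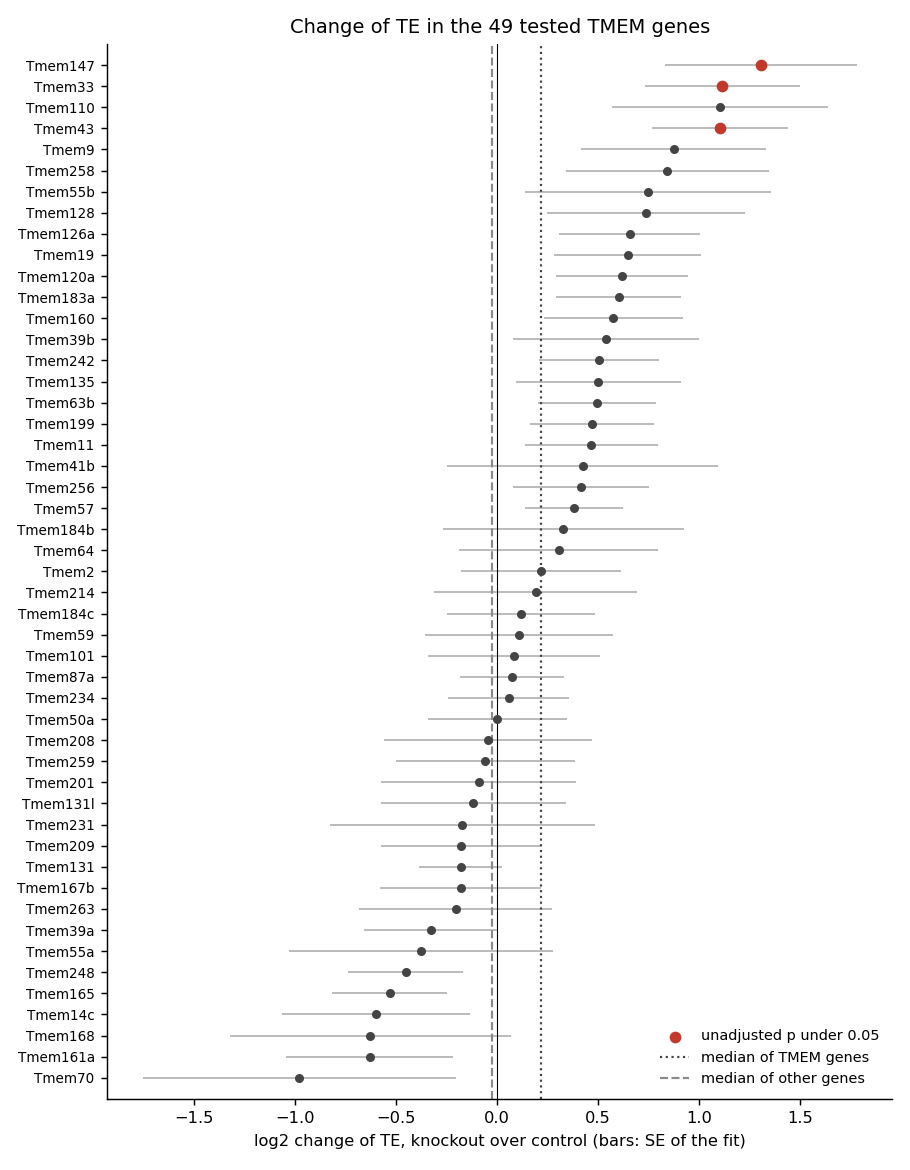
Change of TE (knockout over control, log2) of the 49 tested members in order of size, with bars for the standard error of the fit, a dotted line for the members' median (0.22) and a dashed line for the median of the other genes (-0.02). The 3 members at an unadjusted p under 0.05 are Tmem147, Tmem33 and Tmem43, and none passed the adjusted threshold by limma, whose fit is drawn.

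The shift was larger in 1 knockout library than in the other. The members' median TE stood above that of the other genes by 0.41 on the log2 scale in knockout RPF replicate 2 and by 0.19 in knockout RPF replicate 1, against -0.02 and 0.09 in control RPF replicates 1 and 2. In linear terms the member medians were 1.13 and 1.32 in knockout, where the others had 0.989 and 0.990, and 0.981 and 1.07 in control, where the others had 0.993 and 0.999. Knockout RPF replicate 2 was the shallowest library. Members at exactly 1 read were 15.2% there (others 10.2%) and 8.86% in knockout RPF replicate 1 (others 4.37%), against 1.27% (others 1.09%) and 0% (others 0.149%) in control. The part of depth in the shift was not tested.

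The change of TE also varied with abundance. In 3 classes of mean input that were chosen after the values were seen, the median change of TE was 0.18 for the 35 members under 50 units (0.15 for the 2000 others there), 0.25 for the 34 members of 50 to 150 units (others -0.01) and 0.11 for the 10 members of at least 150 units (others -0.07). The gap between members and others was smallest in the class of low input. The shares with a positive change were 57.1%, 67.7% and 70% of the members and 58.3%, 49.4% and 42.6% of the others, in that order of classes.

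**Figure D4:**
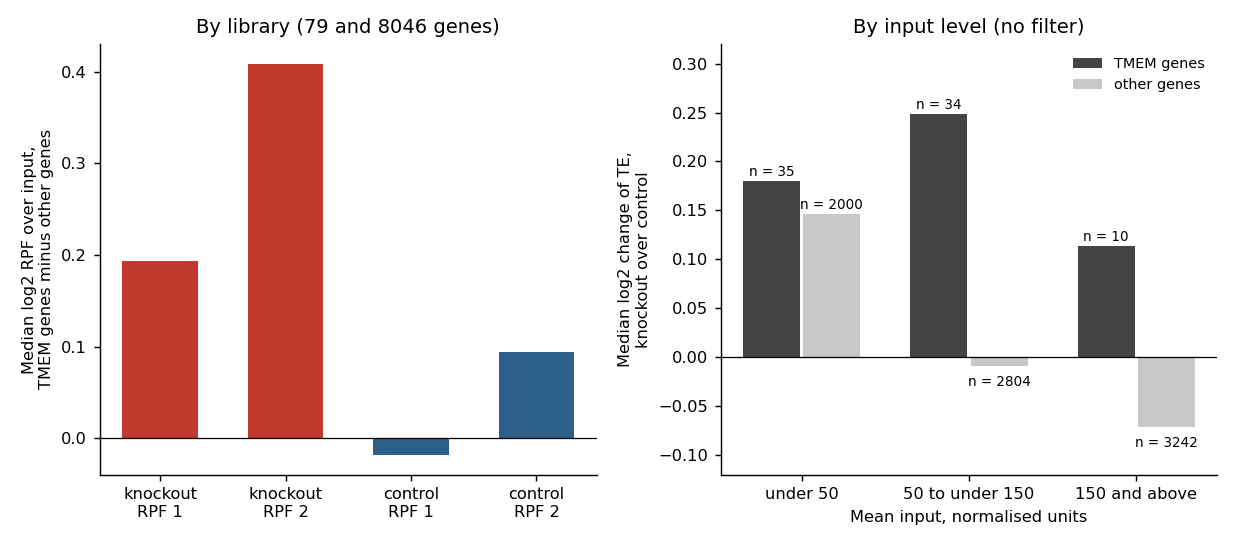
Left, the members' median log2 RPF over input minus that of the other listed genes in each RPF library (0.19 and 0.41 in knockout, -0.02 and 0.09 in control). Right, the median log2 change of TE of members and others in 3 classes of mean input, with no filter and the number of genes at each bar.

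Counted over all 79 members without a filter, both knockout values of TE lay above both control values in 23 (29.1%) and below them in 7 (8.86%), where 21.2% and 21% of all listed genes did so. In RPF 20 members were higher (25.3%) and 8 lower (10.1%), against 20.9% and 20.5% of all genes. In input 11 were higher (13.9%) and 22 lower (27.8%), against 22.6% and 21.2% of all genes. Members with both knockout values on the higher side were more frequent than that share in TE, and those on the lower side were more frequent in input, differences for which no test was made.

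Among the 7 members of ER insertion, glycosylation and quality control, the median TE change was 0.19. In RPF over input 2 were higher and 0 lower in knockout, against 2 higher and 1 lower in control. Of all tested genes, 21.8% were higher and 20.8% lower in knockout, and 19.3% and 14.6% in control. Counts of so few genes do not set the group apart. Tmem147 (ENSMUSG00000006315, chr7:30727701-30729540, minus strand) is a partner of Nicalin and Nomo in the translocon of multi-pass proteins. Its RPF value was 90.4 and 202 units in knockout and 47.3 and 46.5 units in control (11 and 13 reads in knockout and 12 and 24 in control), with input of 117 and 118 in knockout and 119 and 108 in control. RPF over input was 0.768 and 1.72 in knockout and 0.417 and 0.411 in control, and the knockout and control values did not overlap. The TE change was 1.31 ± 0.47 (SE) with adjusted p = 0.334 by limma, and 1.42 with adjusted p = 0.0275 by DESeq2. It ranged from 0.77 without knockout RPF replicate 2 to 1.85 without knockout RPF replicate 1. In control alone, Tmem147 was called lower in RPF than in input (-1.11 ± 0.35 (SE), adjusted p = 0.0443 by limma), and in knockout the difference was 0.17.

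Tmem33 (ENSMUSG00000037720, chr5:67260565-67291461, plus strand), an ER protein that binds reticulons, had RPF values of 123 and 218 in knockout and 78.8 and 77.6 in control (15 and 14 reads in knockout and 20 and 40 in control). Its RPF over input was 1.06 and 1.87 in knockout and 0.614 and 0.605 in control, again without overlap, and its TE change was 1.12 ± 0.38 (SE), adjusted p = 0.324 by limma. Tmem258 had RPF values of 156 and 358 in knockout and 138 and 176 in control and input values of 140.1 and 118 in knockout and 175 and 140.5 in control. Its high value of RPF lay in knockout RPF replicate 2 alone, and its TE change of 0.84 ± 0.50 (SE) had adjusted p = 0.514 by limma. The input difference of Tmem258 was -0.27 ± 0.11 (SE), adjusted p = 0.34 by limma, and -0.42, adjusted p = 0.00397, without control input replicate 2.

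Tmem131 (ENSMUSG00000026116, chr1:36792191-36943666, minus strand), an ER protein of collagen secretion and the longest member, had RPF over input of 1.58 and 1.63 in knockout and 1.95 and 1.68 in control. It was the member with the most RPF reads (68 and 37 reads in knockout and 179 and 314 in control), and it was called higher in RPF than in input in knockout (0.64 ± 0.14 (SE), adjusted p = 0.00974) and in control (0.85 ± 0.14 (SE), adjusted p = 0.00391, both limma). Its TE change was -0.18 ± 0.20 (SE). Tmem214, an ER protein, had RPF over input of 2.15 and 5.02 in knockout and 2.99 and 2.70 in control and was called higher in both genotypes (1.52 ± 0.37 (SE) in knockout, 1.36 ± 0.37 (SE) in control). Tmem208, of a targeting route that does not need SRP, had RPF over input of 0.558 and 1.32 in knockout and 0.748 and 1.07 in control and a TE change of -0.04 ± 0.52 (SE), well within its error. For Tmem259, membralin of ER-associated degradation, the TE change was -0.06 ± 0.44 (SE). The members of this group therefore took values on both sides of zero, with the 3 largest in Tmem147, Tmem33 and Tmem258.

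The 3 members of ER and store calcium had 2 tested genes, both with a positive TE change. Both reached the RPF filter of 50 units only through knockout, so the filter itself favours that sign. Mean RPF was 76.7 in knockout and 31.2 in control for Tmem110, and 64.4 and 49.96 for Tmem64. Tmem110 (ENSMUSG00000006526, chr14:30825590-30877210, plus strand), a regulator of the calcium sensor STIM1, had RPF values of 107 and 46.6 in knockout and 23.6 and 38.8 in control (13 and 3 reads in knockout and 6 and 20 in control) and a TE change of 1.10 ± 0.53 (SE), adjusted p = 0.422 by limma. Its RPF over input of 2.48 and 1.08 in knockout and 0.506 and 0.831 in control separated the genotypes, with the 2 knockout values far apart. Tmem64, a regulator of the ER calcium pump, had RPF over input of 0.728 and 0.413 in knockout and 0.602 and 0.296 in control and was called lower in control (-1.07 ± 0.33 (SE), adjusted p = 0.0422 by limma). Tmem38a, a trimeric intracellular cation channel, had 1 and 3 reads in knockout and 4 and 10 in control in RPF and was not tested for TE. The calcium regulators Tmem38b and Tmem203 were not analysed here.

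Of the 13 members of the Golgi, endosome and lysosome, 9 were tested for TE, with a median change of 0.07, and the whole group lay at 0.11. Tmem9 (ENSMUSG00000026411, chr1:136008150-136035342, plus strand), a lysosomal protein, had RPF values of 98.6 and 140.0 in knockout and 47.3 and 83.4 in control against input values of 17.8 and 21.9 in knockout and 18.8 and 24.0 in control. Its RPF over input was 4.96 and 7.05 in knockout and 2.21 and 3.90 in control, with the largest fitted log2 value in knockout of any tested member (2.08 ± 0.34 (SE), adjusted p = 0.00251 by limma; 1.23 ± 0.34 (SE) in control). Its TE change of 0.87 ± 0.46 (SE) had adjusted p = 0.467 by limma. Its RPF values stood for 12 and 9 reads in knockout and 12 and 43 in control.

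Tmem55b, now Pip4p1, a phosphatidylinositol bisphosphate phosphatase of late endosomes, had RPF values of 337 and 124 in knockout and 106 and 173 in control (41 and 8 reads in knockout and 27 and 89 in control). It was called higher in RPF than in input in knockout (1.75 ± 0.42 (SE)), where the larger value lay in RPF replicate 1, and its relative Tmem55a had a TE change of -0.38 ± 0.66 (SE). The manganese-homeostasis protein Tmem165 (ENSMUSG00000029234, chr5:76183880-76209245, plus strand) ran the other way, with RPF over input of 0.409 and 0.542 in knockout and 0.780 and 0.633 in control. Tmem165 was called lower in knockout (-1.03 ± 0.21 (SE), adjusted p = 0.00611 by limma) and its TE change was -0.53 ± 0.28 (SE), adjusted p = 0.477. With reads thinned to the shallowest library of each kind that change turned to 0.12. Tmem165 had 10 and 7 RPF reads in knockout and 40 and 66 in control. Tmem87a was lower in RPF than in input in both genotypes (-0.59 in knockout and -0.64 in control), and the small Golgi protein Tmem167b was higher in both (0.99 and 1.19). Its relative Tmem167, of high input, had 6 and 2 reads in knockout and 8 and 19 in control in RPF and was not tested for TE. The TE changes of Tmem59 (0.11 ± 0.47 (SE)) and Tmem39a (-0.33 ± 0.33 (SE)) were within their errors, that of the V-ATPase assembly factor Tmem199 was 0.47 ± 0.31 (SE) with both knockout values above both control values, and Tmem115, Tmem87b and Tmem175 were too low in RPF or input for the test.

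The 11 mitochondrial members had a median TE change of 0.48 over 8 tested and 0.47 over all, with 6 of 8 positive. The largest were those of Tmem126a (0.66 ± 0.35 (SE)), Tmem160 (0.58 ± 0.34 (SE)) and Tmem242 (0.51 ± 0.30 (SE)), with adjusted p = 0.472, 0.514 and 0.509 by limma. All 3 had low RPF over input in control, where they were called lower (-0.81, -0.92 and -0.83), and none was called in knockout. The control values also enter the TE change by which these 3 were picked, so the 2 results are not separate. Tmem242 (ENSMUSG00000004945, chr17:5410870-5440259, minus strand), an assembly factor of ATP synthase, had RPF over input of 0.794 and 0.752 in knockout and 0.538 and 0.486 in control. Its 4 values fell in separate pairs by genotype, from 8 and 4 reads in knockout and 12 and 22 in control. Tmem126a had 1.06 and 0.740 in knockout and 0.448 and 0.649 in control, and Tmem160 had 0.931 and 0.630 in knockout and 0.556 and 0.438 in control. The inner membrane protein Tmem11 had TE of 1.34 and 2.03 in knockout and 1.05 and 1.31 in control, with a change of 0.47 ± 0.33 (SE), and the TE changes of Tmem135 and Tmem256 were 0.50 ± 0.41 (SE) and 0.42 ± 0.34 (SE). Tmem256 was called higher in RPF than in input in knockout (0.93 ± 0.23 (SE)).

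Against these stood Tmem70 and Tmem14c. Tmem70 (ENSMUSG00000025940, chr1:16665207-16678275, plus strand), an assembly factor of ATP synthase and complex I, had RPF values of 90.4 and 15.6 in knockout and 86.6 and 77.6 in control (11 and 1 reads in knockout and 22 and 40 in control). Its TE change, -0.98 ± 0.77 (SE), was the lowest of the tested members, and without knockout RPF replicate 2, where it had 1 read, it was 0.01. Tmem14c, a porphyrin transporter of heme synthesis, had RPF over input of 1.05 and 2.19 in knockout and 2.07 and 2.72 in control and was called higher in control (1.16 ± 0.35 (SE), adjusted p = 0.0365 by limma). Its TE change was -0.60 ± 0.46 (SE), and the processed pseudogene Gm4246 shares over 95% identity with part of it, so that its reads may be split or shared. The neighbouring gene of Tmem126a, Tmem126b, had the largest positive input difference among the members (0.29 ± 0.09 (SE), adjusted p = 0.273 by limma, not called) at 42.9 and 41.7 in knockout and 33.4 and 32.3 in control, and had 1 and 1 reads in knockout and 15 and 9 in control in RPF. Tmem186 and Tmem261 (now Dmac1), 2 further assembly factors of complex I, were under the RPF filter.

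The 4 nuclear envelope members had a median TE change of 0.26. In knockout 2 of them were called higher in RPF than in input, as were 21.8% of all tested genes. Tmem43 (ENSMUSG00000030095, chr6:91473703-91488463, plus strand), LUMA of the inner nuclear membrane, had RPF values of 90.4 and 109 in knockout and 47.3 and 40.7 in control (11 and 7 reads in knockout and 12 and 21 in control) and input values of 35.1 and 33.5 in knockout and 39.0 and 35 in control. RPF over input was 2.63 and 3.17 in knockout and 1.28 and 1.10 in control, so that both knockout values lay more than 2 times above the control values. It had the smallest p of a TE change among the members (1.10 ± 0.34 (SE), adjusted p = 0.289 by limma). The change was 1.22 from knockout RPF replicate 2 alone and 0.98 from replicate 1 alone, each against both control libraries. Tmem201, SAMP1 of the same membrane, had RPF over input of 1.66 and 3.67 in knockout and 2.60 and 2.62 in control. It had 6 and 7 RPF reads in knockout and 23 and 47 in control. It was called higher in both genotypes (1.06 in knockout and 1.18 in control). The TE changes of Tmem120a and Tmem209 were 0.62 ± 0.33 (SE) and -0.18 ± 0.40 (SE), with adjusted p = 0.472 and 0.893 by limma.

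Of the 6 members of the plasma membrane and ion transport, only Tmem2 and Tmem63b were tested for TE. Tmem2 (ENSMUSG00000024754, chr19:21778342-21858360, plus strand), a cell surface hyaluronidase now named Cemip2, had the highest input reads of all members (1814 and 6637 reads in knockout and 1977 and 2046 in control) and RPF over input of 0.292 and 0.590 in knockout and 0.333 and 0.382 in control. It was called lower in both genotypes (-1.24 ± 0.30 (SE) in knockout and -1.43 ± 0.30 (SE) in control, adjusted p = 0.0133 and 0.00926 by limma). Its input was 425 and 418 in knockout and 482 and 512 in control, the smallest p of an input change among the members (-0.23 ± 0.06 (SE), adjusted p = 0.218 by limma). The mechanosensitive channel Tmem63b had a TE change of 0.50 ± 0.29 (SE). Tmem132a had input of 50.8 and 54.6 in knockout and 67.3 and 63.0 in control (-0.26 ± 0.09 (SE), adjusted p = 0.286 by limma), and a transcript of Slc15a3 overlaps it on the opposite strand. Tmem30a, a subunit of phospholipid flippases, Tmem206 and Tmem8 were under the RPF filter, and Tmem8 had 1 and 4 reads in knockout and 1 and 17 in control there.

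Of the 4 ciliary members and of the 3 of lipid metabolism, only 1 each was tested for TE. Tmem231, of the ciliary transition zone, was the only ciliary gene tested for TE, with RPF over input of 1.37 and 4.67 in knockout and 3.34 and 2.60 in control and a change of -0.17 ± 0.66 (SE). Tmem237, Tmem138 and Tmem67 had between 1 and 24 RPF reads in each library, and Tmem138 overlaps an annotated gene, AC125093.1, on the opposite strand, whose reads cannot be told apart from its own if strand was not used in counting. Of the lipid genes Tmem41b, an ER scramblase needed for autophagy, was tested (0.42 ± 0.67 (SE), with RPF over input of 0.828 and 2.51 in knockout and 0.716 and 1.49 in control), and the processed pseudogene Gm6223 is a near copy of its whole coding sequence. Tmem41a and the sterol-binding Tmem97, which also has a near copy (Gm5809), were under the RPF filter. Neither group gave a call by limma in any comparison of all libraries.

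Among the 28 members without an assigned role, 15 were tested for TE, with a median change of 0.08. Tmem183a (ENSMUSG00000042305, chr1:134346097-134361979, minus strand) had the lowest fitted RPF over input of the tested members in both genotypes, with 0.351 and 0.222 in knockout and 0.174 and 0.176 in control. It was abundant in input (364 and 338 in knockout and 368 and 357 in control) and had 15 and 5 reads in knockout and 16 and 33 in control in RPF, which gave -1.76 ± 0.21 (SE) in knockout and -2.34 ± 0.21 (SE) in control (adjusted p = 0.000597 and 0.000255 by limma). Both calls held under all 16 alternatives that tested them. The processed pseudogene Gm15782 shares over 95% identity with part of its coding sequence. Tmem57 (now Maco1) was also low in both genotypes, with RPF over input of 0.576 and 0.545 in knockout and 0.399 and 0.434 in control.

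At the high end of the tested members stood Tmem184b and Tmem39b, both of low input, where the RPF filter lets in only high values. Tmem184b (ENSMUSG00000009035, chr15:79360684-79403569, minus strand) had RPF over input of 7.98 and 2.88 in knockout and 3.35 and 4.37 in control from 21 and 4 reads in knockout and 17 and 45 in control, and its level was 1.84 ± 0.41 (SE) in knockout and 1.53 ± 0.41 (SE) in control. Tmem39b (ENSMUSG00000053730, chr4:129676355-129696838, minus strand) was among the scarcest mRNAs, with input of 7.26 and 9.76 in knockout and 15.6 and 8.0 in control and RPF over input of 5.79 and 9.14 in knockout and 3.67 and 4.43 in control. It was called higher in both genotypes (adjusted p = 0.00329 in knockout and 0.0149 in control by limma). Its RPF values stood for 6 and 5 reads in knockout and 11 and 27 in control. The related Tmem39a, of high input, lay near the median with 0.671 and 1.06 in knockout and 1.10 and 1.07 in control. Tmem263, which had no segment, was also higher in both genotypes. Tmem19 was called higher (0.98 ± 0.26 (SE)) and Tmem248 lower (-0.59 ± 0.20 (SE)) in knockout and not in control, and the differences between genotypes, their TE changes, were 0.65 ± 0.36 (SE) and -0.45 ± 0.28 (SE) with adjusted p = 0.492 and 0.54 by limma.

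The lowest TE changes in this group were those of Tmem161a (-0.63 ± 0.41 (SE)) and Tmem168 (-0.63 ± 0.69 (SE)), and the highest were those of Tmem128 (0.74 ± 0.49 (SE)), Tmem19 and Tmem183a (0.60 ± 0.31 (SE)). Tmem161a had RPF over input of 0.748 and 1.42 in knockout and 1.53 and 1.82 in control, with both knockout values below both control values. Tmem184c (0.12 ± 0.36 (SE)), Tmem234 (0.06 ± 0.30 (SE)), Tmem50a (0.00 ± 0.34 (SE)), Tmem101 (0.08 ± 0.43 (SE)) and Tmem131l (-0.12 ± 0.46 (SE)) lay near zero. The 13 untested members without a role were Tmem106a, Tmem185b, Tmem191c, Tmem219, Tmem222, Tmem230, Tmem238, Tmem245, Tmem50b, Tmem60, Tmem69, Tmem94 and Tmem98. Tmem191c had the highest mean RPF value of an untested member (49.8), and Tmem55a the lowest of a tested one (50.5). Tmem191c and Tmem230 have near copies elsewhere in the annotation.

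Single libraries decided which members came closest to a call. When knockout RPF replicate 1 was left out, limma called 7 members higher in TE (Tmem147, Tmem43, Tmem33, Tmem258, Tmem11, Tmem214 and Tmem2) and Tmem70 lower, 16.3% of the tested members where 21.6% of all genes were called. When knockout RPF replicate 2 was left out, it called 6 higher (Tmem110, Tmem147, Tmem43, Tmem55b, Tmem183a and Tmem256) and 4 lower (Tmem209, Tmem14c, Tmem168 and Tmem161a), 20.4% of the members against 17.8% of all genes. Only Tmem147 and Tmem43 were in both sets. The share of all tested genes in both sets was not counted, and the fits had all control and input libraries in common. In these fits the lone knockout library was assumed to vary like the others. In RPF the same omissions called 4 members (Tmem147, Tmem33 and Tmem258 higher, Tmem70 lower) and 5 (Tmem110, Tmem55b and Tmem184b higher, Tmem14c and Tmem161a lower), or 8.16% and 10.2% of the members against 13.9% and 12.1% of all genes. In input, 4 members (Tmem258, Tmem39b, Tmem167 and Tmem185b) were called lower without control input replicate 2 (5.26% of the members, against 7.54% of all genes called), and 0 in the fit of all libraries.

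The number of hydrophobic segments did not order the TE changes of the members. Over all members, the median was -0.19 for the 6 with no segment (others -0.04), 0.46 for the 12 with 1 segment (others 0.03), 0.21 for the 42 with 2 to 4 (others 0.04) and 0.12 for the 19 with 5 or more (others 0.16). It was 0.10 where the first segment began within 60 residues (others 0.07) and 0.31 where it began later (others 0.03). Among the other listed genes, those with 5 or more segments had the highest median. At a limit of 1.8 the member medians fell with segment number, at 0.42 (9 members with none), 0.28 (18), 0.21 (44) and -0.04 (8). Those of the others rose there from -0.03 to 0.20. At 1.4 the member medians were -0.18 (1 member with none), 0.32 (10), 0.26 (44) and 0.12 (24). The order thus depended on the limit, and all these medians are descriptions with no test.

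**Figure D5:**
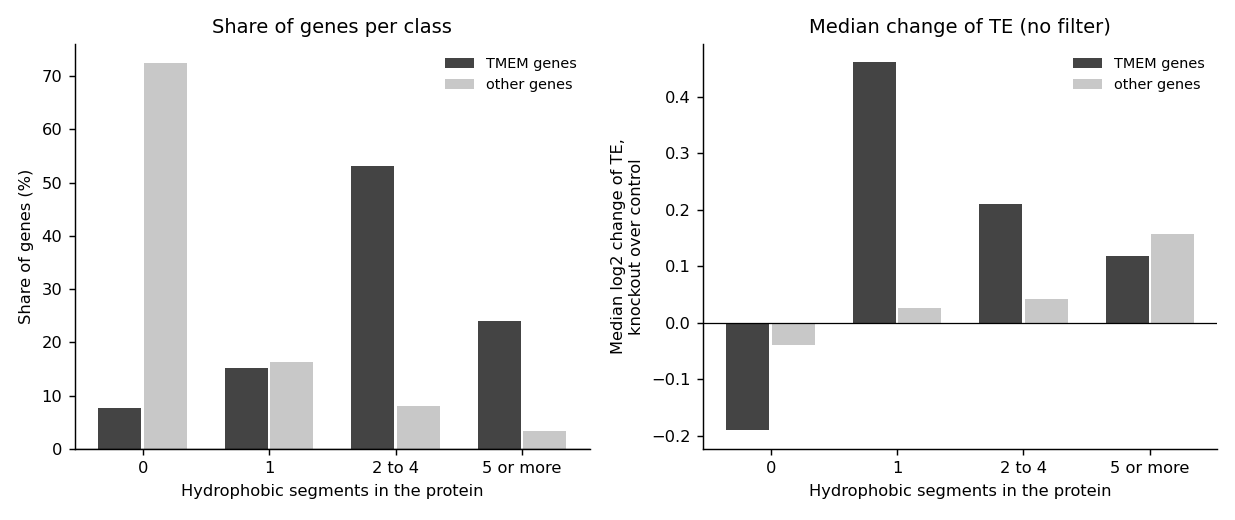
Share of genes (left, percent) and median log2 change of TE, knockout over control (right), of the members and of the other listed genes by the number of hydrophobic segments in the encoded protein, with no filter. Most members have 2 to 4 segments (53.2%) and most other genes none (72.4%), and the member medians of TE change are -0.19, 0.46, 0.21 and 0.12 for 0, 1, 2 to 4 and 5 or more segments.

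Of the machinery that inserts such proteins, 30 of 42 genes were listed, and 0 were called in input, RPF or TE (30, 29 and 29 tested). Their median changes were 0.06 in input, -0.04 in RPF and -0.12 in TE. By route, the median TE change was -0.21 for 8 subunits of the EMC, -0.16 for 6 genes of SRP and its receptor, -0.14 for 6 of the tail-anchor route, -0.09 for 4 of the multi-pass translocon and 0.18 for 5 of Sec61 and its partners. The other listed genes of the multi-pass translocon, to which Tmem147 belongs, had TE changes between -0.54 and 0.49. In RPF over input, 7 of the 29 were higher and 4 lower in knockout (21.8% and 20.8% of all tested genes), and 6 were higher and 4 lower in control (19.3% and 14.6%).

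Markers of the labelled cell type were present. All 12 stem cell markers were listed, with a summed input of 13680 and 13330 units in knockout and 13510 and 13370 in control. By limma 0 of them were called in input, RPF or TE between genotypes. Of 9 primitive endoderm markers 5 were listed, and Col4a1, Col4a2 and Cubn rose in input by limma with Benjamini-Hochberg adjustment, with a summed input of the list of 966 and 1044 units in knockout and 690 and 682 in control. Of 7 fibroblast markers 0 were listed, and of 6 trophoblast markers 1 (Krt8). Krt8 had input of 41 and 39.5 units in knockout and 23.9 and 26.3 in control. Its change of 0.52 and that of the endoderm marker Lama1 (0.37) were not called, each with adjusted p = 0.0568 by limma. The part of endoderm or trophoblast cells in the members' values was not tested. No batch is named in the labels, and effects of clone or batch cannot be told apart from those of genotype.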

How the data were processed

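The study profiled 8 libraries, 2 each of RPF and input in Dis3l2 -/- (knockout) and Dis3l2 +/- (control) cells. Per its methods, the authors removed adapters, poor reads and reads of rRNA and tRNA, aligned the remainder to canonical gene models of mm10 with Bowtie (version not given in the sources used here), allowing 1 mismatch, and counted RPFs on coding sequence. The deposited signal values, which the authors named RPKM, are reads scaled by a single factor for each library with no length term, and whole reads were recovered from all of them within 0.02 read. A pair of columns with the authors' own comparison (TE fold change and its class) was not used.

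Changes were tested with limma 3.58.1 (two-sided; lmFit and eBayes with trend) under R 4.3.3, from log2(value + 10) over all listed genes, with Benjamini-Hochberg adjustment at 0.05. Input needed a mean of 10 and RPF of 50. TE change was an interaction term (genotype by kind of library). RPF over input was a contrast within each genotype, after median centring, from a single fit of all 8 libraries. Its standard errors and p-values therefore use a spread shared by both genotypes. The pseudocount makes fold changes of low genes smaller. In the text, TE of a library is its RPF value over the mean input of its genotype, since replicate numbers did not pair the libraries. Alternatives were pseudocounts of 1 and 30, no or a stricter filter (100 and 200), other scaling, edgeR 4.0.16 and DESeq2 1.42.0 on the recovered reads, thinned reads, the replicate block and each library left out. The scripts were tested on simulated data.

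Coordinates, coding lengths and proteins came from GENCODE M21 (GRCm38), to which 8125 of 8125 genes matched. Proteins translated from GENCODE coding sequence stood in for the RefSeq proteins planned. Coding length was known for 8102 genes. Members, roles and lists were chosen with earlier results of these data known. Named members were, per comparison and direction, up to 10 of those past the threshold with the largest change or, where fewer than 5 passed, the 5 of smallest p, the 5 highest and 5 lowest in input per kilobase, the 3 highest per role group, and Tmem258, Tmem147, Tmem208, Tmem38b, Tmem110, Tmem64, Tmem203 and Tmem33. The other members were named to account for all.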

Additional observations from a re-analysis of the deposited data

How the results depend on the processing

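The absence of called members between genotypes held for input and RPF under the alternatives that kept all libraries, and in TE DESeq2 called 1. Left-out libraries gave 0 to 4 called members in input, 0 to 5 in RPF and 0 to 10 in TE, with medians of -0.07 to -0.02, 0.13 to 0.24 and 0.18 to 0.31. The median RPF change was 0.36 by DESeq2, 0.14 without a filter, 0.14 with thinned reads and -0.21 under the stricter filter, where the median TE change was -0.18; that filter left 3 members. In RPF over input, the stricter filter left 1 call in knockout (median 0.64) and 2 in control (0.79), thinned reads left 9 in knockout and 8 in control, edgeR and DESeq2 called 29 each in control, and the knockout median was 0.18 without a filter. Left-out libraries gave 3 to 30 calls in knockout (medians 0.051 to 0.43) and 3 to 29 in control (-0.042 to 0.12). Libraries of 1 replicate number did not deviate together (correlation of deviations -0.036 to 0.09), and the replicate block changed 0 calls between genotypes (medians -0.05 in input, 0.26 in RPF and 0.22 in TE) and left 14 in knockout and 17 in control in RPF over input. With thinned reads Tmem165 turned to 0.14 in RPF and 0.12 in TE. Without knockout RPF replicate 2 Tmem70 turned to 0.13 in RPF and 0.0097 in TE, and without knockout RPF replicate 1 it was -1.85 and -1.96. The cause of these shifts was not tested. Per kilobase of transcript rather than coding length, the members' input lay below the others by -0.88 rather than -0.33 on the log2 scale. With hydropathy limits of 1.8 and 1.4, 70 and 78 members had a segment, against 73. The median TE change of the members without a segment was 0.42 at a limit of 1.8 and -0.19 at 1.6. Depth limits the RPF values of knockout most.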
